A study of Homo sapiens with 6 samples.

Results

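BHLHE40, BHLHE41 and 8 genes of the circadian clock (PER1, PER2, PER3, CRY1, CRY2, NR1D1, NR1D2 and DBP) were followed in MDA-MB-231 cells exposed to the peptide PDBAG1. These 10 genes of the 17631 in the files were picked by symbol. BHLHE40 had been chosen from the same vehicle against PDBAG1 values that are given here, and the other genes were added as its partners in the clock, so their differences are descriptions and carry no test. The question was whether other clock repressors shifted with BHLHE40.

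MDA-MB-231 is a human triple-negative breast cancer line of mesenchymal character, lacking estrogen and progesterone receptors and amplified HER2. PDBAG1 is a synthetic peptide derived from the metabolic enzyme GPD1 and joined to a cell-penetrating sequence. Cells received vehicle or 30 µM PDBAG1 for 24 h, and mRNA was sequenced from 3 libraries per group. The 2 groups share the cell line and differ in the agent; no library received a control peptide. The labels also call the source breast cancer tissue. Neither the labels nor the methods mention synchronisation of the cultures, and each group holds 1 time, so the phase of the clock cannot be read from these values.

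The molecular clock is a feedback loop of transcription. CLOCK or NPAS2 pairs with BMAL1 and activates genes through E-box elements, among them the PER and CRY genes, whose proteins then inhibit the pair. A second loop is formed by the nuclear receptors NR1D1 and NR1D2 (REV-ERBα and REV-ERBβ), which repress BMAL1, and by the ROR receptors, which activate it. BHLHE40 and BHLHE41 (DEC1 and DEC2) are basic helix-loop-helix repressors that bind E-boxes themselves, and they also respond to hypoxia, growth factors and other signals outside the clock. DBP is a PAR bZIP activator that acts at D-box elements and is a classical output of CLOCK and BMAL1.

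Each library held between 12392 and 12611 genes at 1 TPM or more. TPM, a transcript abundance scaled to the same total in every library, corrects for transcript length, so levels can be set beside each other between genes, but it keeps no depth, and the depth of the libraries is unknown. In log2(TPM + 1), the SD of the differences between libraries was 0.142 to 0.175 within a group and 0.278 to 0.296 between groups. Nothing states that the libraries came from separate cultures, so the spread between them may be technical. All 4 mesenchymal markers were abundant: VIM (4270 TPM in vehicle, 5877 in PDBAG1) and CD44 (321 and 484 TPM) rose, and AXL (384 and 320 TPM) and CAV1 (575 and 467 TPM) fell, with limma adjusted p = 1.02e-07, 1.15e-07, 0.000342 and 6.01e-05. In contrast, PGR (0.0267 TPM in vehicle) and CDH1 (0.567 TPM in vehicle) were close to 0. Among markers of other cells, the leukocyte gene PTPRC stood at 1.08 and 1.04 TPM, and the endothelial gene PECAM1 rose from 3.94 to 8.64 TPM (log2 difference 0.96, limma adjusted p = 2.21e-06). The luminal markers ESR1 (2.26 and 2.61 TPM), GATA3 (3.59 and 3.23 TPM), EPCAM (5.14 and 5.27 TPM) and ERBB2 (24.7 and 24.5 TPM) were low or moderate. Whether the PECAM1 transcript came from MDA-MB-231 cells or from other cells was not tested. In bulk RNA, a change in the share of cells and a change in RNA per cell cannot be told apart.

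BHLHE40 had by far the widest difference of the 10 genes. BHLHE40 (ENSG00000134107, chr3:4979437-4985323, plus strand, GRCh38) measured 35.19, 36.21 and 35.33 TPM in the vehicle libraries and 132.92, 141.16 and 136.96 TPM in the PDBAG1 libraries. The groups lay far apart, and the lowest treated library was far above the highest vehicle library. Mean levels were 35.6 ± 0.553 and 137 ± 4.12 TPM (SD, n = 3), a ratio of 3.85. The difference in log2(TPM + 1) was 1.92 (SE 0.05), the 4th highest of 12582 genes tested. BHLHE40 shares 451 exon bases with BHLHE40-AS1, a lncRNA gene on the opposite strand that is not among the genes listed. Whether the counting used strand is not given, and the part of the shared bases in the BHLHE40 value was not tested.

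BHLHE41, the paralogue of BHLHE40 with an overlapping set of targets, was higher too, from a lower level and by a smaller factor. BHLHE41 (ENSG00000123095, chr12:26120030-26125037, minus strand) measured 5.95, 6.39 and 6.29 TPM with vehicle and 12.69, 13.13 and 13.09 TPM with PDBAG1. The groups did not overlap. The means were 6.21 ± 0.231 and 12.97 ± 0.243 TPM (SD, n = 3), with a ratio of 2.09 and a log2(TPM + 1) difference of 0.95 (SE 0.08), which ranked 91st of 12582. BHLHE41 shares 162 exon bases with SSPN on the opposite strand, which stood at 1.21 ± 0.115 and 1.35 ± 0.0985 TPM (SD, n = 3).

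Together the pair supplied 41.8 ± 0.744 TPM with vehicle and 149.98 ± 4.34 TPM in treated cells (SD, n = 3). The balance within the pair lay further towards BHLHE40 in treated cells. BHLHE40 made up 85.5%, 85.0% and 84.9% of the pair's summed TPM in the vehicle libraries and 91.3%, 91.5% and 91.3% in the PDBAG1 libraries. The ratio of BHLHE40 to BHLHE41 was 5.73 ± 0.159 with vehicle and 10.6 ± 0.163 in treated cells (SD, n = 3). Such a share is formed inside a library and so is not altered when a library is rescaled by a constant factor.

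The DNA just before the start sites of the pair carries an E-box in each gene, the element that both proteins and CLOCK with BMAL1 recognise. These are the 250 bases before the RefSeq start (GRCh38.p14), read 5′ to 3′ on the strand of the gene, for BHLHE40 at chr3:4979187-4979436 and for BHLHE41 at chr12:26125038-26125287. Capitals mark the E-box CACGTG and the hypoxia response core ACGTG or GCGTG, searched on both strands. Every CACGTG also contains ACGTG.
BHLHE40: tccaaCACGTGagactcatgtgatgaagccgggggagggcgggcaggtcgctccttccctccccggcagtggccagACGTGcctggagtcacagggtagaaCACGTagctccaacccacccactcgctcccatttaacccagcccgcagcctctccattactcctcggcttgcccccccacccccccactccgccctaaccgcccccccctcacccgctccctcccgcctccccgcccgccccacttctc
BHLHE41: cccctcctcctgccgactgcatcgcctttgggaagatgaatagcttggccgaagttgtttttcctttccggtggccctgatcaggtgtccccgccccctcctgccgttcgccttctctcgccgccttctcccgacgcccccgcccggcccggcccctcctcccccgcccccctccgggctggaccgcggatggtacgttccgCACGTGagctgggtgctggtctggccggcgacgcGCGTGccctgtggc
Counted from the start, the E-box begins at base -245 in BHLHE40, with further cores after it, and at base -48 in BHLHE41. Of the window shown for BHLHE41, 133 bases lie in an annotated exon of a lncRNA.

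**Figure D1:**
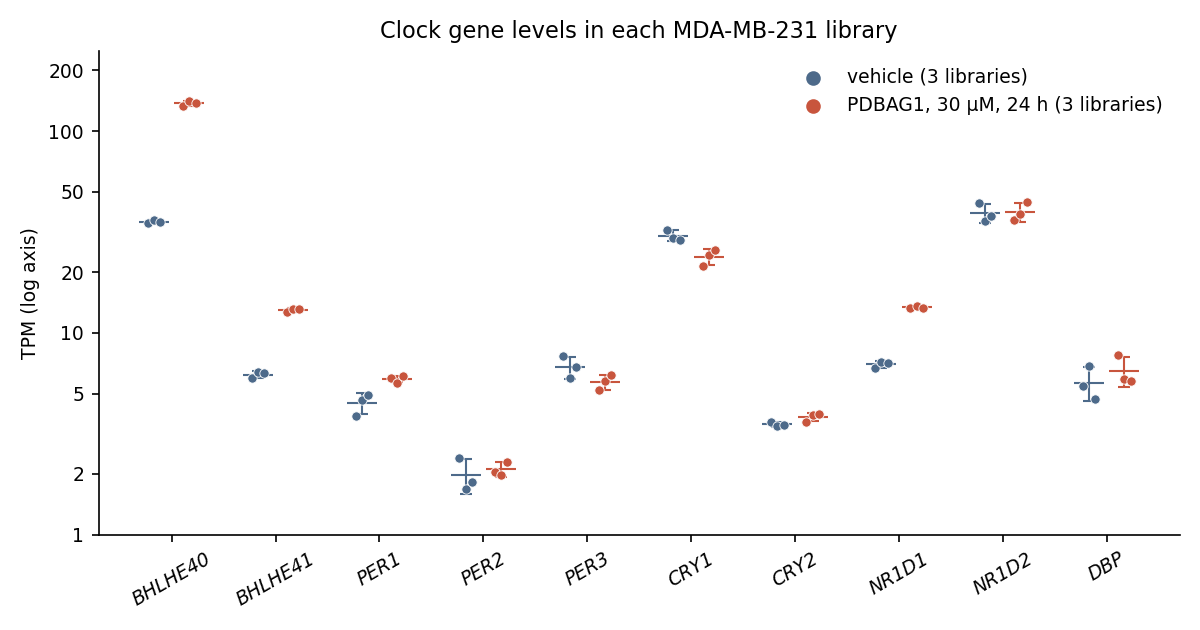
TPM on a log axis for the 10 genes in each of 6 libraries (blue, vehicle; red, 30 µM PDBAG1 for 24 h). Each point is 1 library; the groups are widely separated for BHLHE40, BHLHE41 and NR1D1, and they overlap for PER2, PER3, NR1D2 and DBP.

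NR1D1, the heme-binding repressor of BMAL1, showed the next widest separation, whereas NR1D2 did not separate the groups. NR1D1 (ENSG00000126368, chr17:40092793-40100589, minus strand) measured 6.67, 7.16 and 7.09 TPM with vehicle and 13.25, 13.59 and 13.26 TPM with PDBAG1. All treated libraries were above all vehicle libraries. The means of 6.97 ± 0.265 and 13.4 ± 0.193 TPM (SD, n = 3) gave a ratio of 1.92, and the log2(TPM + 1) difference was 0.85 (SE 0.07), 122nd of 12582.

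NR1D2 (ENSG00000174738, chr3:23945286-23980617, plus strand) measured 43.75, 35.82 and 38.13 TPM with vehicle and 36.34, 38.66 and 44.54 TPM with PDBAG1. The highest and lowest libraries of the groups interleaved. Its means were 39.2 ± 4.08 and 39.8 ± 4.23 TPM (SD, n = 3), a log2(TPM + 1) difference of 0.02 (SE 0.08). NR1D1 therefore took 13.2%, 16.7% and 15.7% of the summed TPM of the 2 receptors with vehicle and 26.7%, 26.0% and 22.9% with PDBAG1. The sum itself overlapped between groups, at 46.2 ± 3.82 and 53.2 ± 4.19 TPM (SD, n = 3).

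NR1D1 shares 473 exon bases with THRA, the thyroid hormone receptor α gene on the opposite strand. THRA rose from 12.5 ± 0.415 to 15.6 ± 0.717 TPM (SD, n = 3), by 0.30 in log2(TPM + 1), with an adjusted p = 0.00431 in limma after Benjamini-Hochberg correction. Whether the counting used strand is not given in the sources used here, so reads from the shared bases cannot be told apart, and their part in the NR1D1 value was not tested.

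The 250 bases before the NR1D1 start (GRCh38.p14, chr17:40100590-40100839, gene strand) are shown because NR1D1, like BHLHE40, was higher in every treated library but lacks its E-box letters there. They hold 3 hypoxia response cores, in capitals, and no CACGTG.
NR1D1: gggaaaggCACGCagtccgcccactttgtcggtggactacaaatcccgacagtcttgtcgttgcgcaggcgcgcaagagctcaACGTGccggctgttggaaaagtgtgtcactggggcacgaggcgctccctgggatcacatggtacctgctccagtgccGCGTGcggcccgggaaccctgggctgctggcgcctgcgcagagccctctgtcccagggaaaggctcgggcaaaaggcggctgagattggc
In NR1D2 the second RefSeq start holds a D-box (TTATGTAA on the opposite strand, chr3:23945916-23945945) and a pair of E-boxes (chr3:23945954-23945983 and chr3:23946004-23946033), each given with its flanks on the gene strand and the motif in capitals.
NR1D2 D-box: gtgacgcggcaTTACATAAtgggcgctgag
NR1D2 first E-box: ggcgggcggggaCACGTGaggccgctcggc
NR1D2 second E-box: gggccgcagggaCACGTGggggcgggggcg
Only a window of 300 bases around each start was searched, so E-boxes elsewhere near NR1D1 would not be seen. Whether an E-box bears on the level of NR1D1 or NR1D2 was not tested. A match of letters is a description and does not show binding.

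The 3 PER genes, whose proteins carry the CRY proteins into the nucleus and inhibit CLOCK with BMAL1, did not differ alike. PER1 (ENSG00000179094, chr17:8140472-8156506, minus strand) measured 3.88, 4.64 and 4.93 TPM with vehicle and 5.97, 5.67 and 6.08 TPM with PDBAG1. The groups did not overlap, and the lowest value was in vehicle library 1. Means were 4.48 ± 0.542 and 5.91 ± 0.212 TPM (SD, n = 3), a ratio of 1.32 and a log2(TPM + 1) difference of 0.34 (SE 0.10). Without vehicle library 1 the difference was 0.26.

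PER2 (ENSG00000132326, chr2:238244044-238290102, minus strand), the partner of PER1 in the same complex, measured 2.41, 1.68 and 1.82 TPM with vehicle and 2.04, 1.98 and 2.30 TPM with PDBAG1. The treated values lay inside the vehicle range, with a log2(TPM + 1) difference of 0.07 (SE 0.12). PER3 (ENSG00000049246, chr1:7784291-7845177, plus strand), the PER least needed for rhythm, measured 7.64, 5.94 and 6.74 TPM with vehicle and 5.21, 5.74 and 6.17 TPM with PDBAG1. Its groups overlapped through 1 library each, with a lower treated mean (6.77 ± 0.850 and 5.71 ± 0.481 TPM, SD, n = 3) and a log2(TPM + 1) difference of -0.21 (SE 0.10).

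The summed TPM of the 3 genes was 13.2 ± 0.866 with vehicle and 13.7 ± 0.724 in treated cells (SD, n = 3), overlapping between groups, while its composition differed. PER1 gave 27.9%, 37.8% and 36.5% of the sum with vehicle and 45.2%, 42.3% and 41.8% with PDBAG1. PER3 gave 54.8%, 48.5% and 49.96% with vehicle and 39.4%, 42.9% and 42.4% with PDBAG1. Neither share overlapped between groups. PER3 was the most abundant PER in every vehicle library, whereas PER1 was above PER3 in PDBAG1 library 1 and just below it in PDBAG1 libraries 2 and 3.

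All 3 PER genes have a D-box near a start site, the element at which DBP, TEF and HLF activate and NFIL3 represses. The sites are printed with flanks on the gene strand (GRCh38.p14), motif in capitals, at chr17:8152416-8152445 for PER1, chr2:238288595-238288624 for PER2 and chr1:7784103-7784132 for PER3. The PER1 window also has an E-box, at chr17:8152560-8152589.
PER1 D-box: agtgcccggcaTTATGCAAcccgcctcccc
PER2 D-box: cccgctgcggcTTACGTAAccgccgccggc
PER3 D-box: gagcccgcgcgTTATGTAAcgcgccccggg
PER1 E-box: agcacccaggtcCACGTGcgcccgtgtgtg
Whether the D-box bears on the level of any of the 3 PER genes was not tested.

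CRY1 was the member with lower values in every treated library. CRY1 (ENSG00000008405, chr12:106991364-107093549, minus strand), the flavoprotein repressor that binds CLOCK and BMAL1 directly, measured 32.43, 29.57 and 28.80 TPM with vehicle and 21.43, 24.28 and 25.76 TPM with PDBAG1. The lowest vehicle library was above the highest treated one. Means of 30.3 ± 1.91 and 23.8 ± 2.201 TPM (SD, n = 3) gave a ratio of 0.787, and the log2(TPM + 1) difference was -0.34 (SE 0.07).

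CRY2 (ENSG00000121671, chr11:45847118-45883248, plus strand), the less abundant cryptochrome, measured 3.62, 3.44 and 3.48 TPM with vehicle and 3.63, 3.92 and 3.96 TPM with PDBAG1. The groups touched: the highest vehicle and lowest treated library were 3.62 and 3.63 TPM, which the rounding of the files to 2 decimals barely separates. The log2(TPM + 1) difference was 0.10 (SE 0.09), and it was -0.01 after quantile normalization. The sum of both genes was 33.8 ± 2.00 TPM with vehicle and 27.7 ± 2.38 TPM in treated cells (SD, n = 3), without overlap, and CRY1 supplied 89.6 ± 0.370% and 86.1 ± 0.580% of it. The 250 bases before the CRY1 start (GRCh38.p14, chr12:107093550-107093799, gene strand) are given for comparison with BHLHE40, since CRY1 differed in the opposite direction. They hold hypoxia response cores, in capitals, and no E-box.
CRY1: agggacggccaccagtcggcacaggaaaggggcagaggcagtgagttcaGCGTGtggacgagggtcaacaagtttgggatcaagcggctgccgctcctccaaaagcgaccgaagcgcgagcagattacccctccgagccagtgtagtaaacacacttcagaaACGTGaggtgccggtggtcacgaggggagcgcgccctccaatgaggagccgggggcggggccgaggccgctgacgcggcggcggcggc
The same core occurs in at least 1 start-site window of each of the 10 members.

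DBP (ENSG00000105516, chr19:48630030-48637379, minus strand), the D-box activator, measured 5.45, 6.83 and 4.72 TPM with vehicle and 7.73, 5.92 and 5.75 TPM with PDBAG1. The groups overlapped, and the spread within each exceeded the gap between the means of 5.67 ± 1.07 and 6.47 ± 1.10 TPM (SD, n = 3). The log2(TPM + 1) difference was 0.17 (SE 0.13). DBP shares 661 exon bases with SPHK2 on the other strand, which stood at 16.5 ± 1.14 and 17.5 ± 1.12 TPM (SD, n = 3).

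Ordered by level with vehicle, NR1D2 and BHLHE40 came first, and their libraries overlapped. CRY1 followed, then NR1D1, PER3, BHLHE41, DBP and PER1, in which each neighbour overlapped the next, and CRY2 and PER2 came last. With PDBAG1 the order was BHLHE40, NR1D2, CRY1, NR1D1, BHLHE41, DBP, PER1, PER3, CRY2 and PER2. There DBP overlapped PER1 and PER1 overlapped PER3, and all other neighbours were separated.

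Of the 10 members, all of which passed the filter of 1 TPM in 3 libraries, 5 were higher in every PDBAG1 library (BHLHE40, BHLHE41, PER1, CRY2 and NR1D1), 1 was lower (CRY1) and 4 overlapped. Over all 12582 genes tested, 27.2% were higher and 20.2% lower without overlap. Limma was fitted over all genes, and the place of the members in that fit is a description, not a test of them. At an adjusted p under 0.05 in it, 4 members (BHLHE40, BHLHE41, NR1D1 and PER1) lay on the higher side and 1 (CRY1) on the lower. Of all genes, 21.7% and 15.9% did. With a fold of at least 1.5 as well, 3 members (BHLHE40, BHLHE41 and NR1D1) were past both limits upwards and 0 downwards, against 2.86% and 0.477% of all genes. As the same contrast chose the members, nothing is read from these counts. The median log2(TPM + 1) difference was 0.13 over the members and 0.03 over all genes tested.

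How near each member came to the profile of BHLHE40 was described by the root mean square difference of centred log2(TPM + 1) values over the 6 libraries. BHLHE41 was 83rd nearest of the genes tested (0.481) and NR1D1 113th (0.533). PER1 followed at place 1313, and CRY1 was among the farthest at place 12026. Ranked by log2(TPM + 1) difference, BHLHE41, NR1D1, PER1 and CRY1 stood 91st, 122nd, 1317th and 12050th. The profile places therefore largely restate that difference. The 5 genes with the most similar profile were PPFIA4 (0.0695), a liprin scaffold, IL1B (0.0921), the cytokine interleukin-1β, FOS (0.0961), the AP-1 subunit, NR4A1 (0.105), an immediate early nuclear receptor, and RRAD (0.107), a Ras-related GTPase. None of these is a clock gene of the lists used here. They differed by 1.76 to 1.83 in log2(TPM + 1), and with a pseudocount of 0.1 the nearest 5 retained 2 of them.

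BHLHE41, the other member with the largest difference, lay nearest to MSMO1 (0.0179), TFPI2 (0.0259) and INSIG1 (0.0353). MSMO1 is an enzyme of cholesterol synthesis, INSIG1 a sterol-sensing regulator and TFPI2 a protease inhibitor. MSMO1 measured 74.5 ± 1.54 TPM with vehicle and 142.56 ± 1.67 TPM in treated cells (SD, n = 3).

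The activators that the members act on had smaller differences than BHLHE40. CLOCK, the DNA-binding partner inhibited by PER and CRY, stood at 14.1 ± 1.04 and 14.1 ± 0.787 TPM (SD, n = 3) and did not pass the test (limma adjusted p = 0.976). Its paralogue NPAS2 rose from 36.9 ± 0.669 to 48.15 ± 2.08 TPM (log2 difference 0.37, limma adjusted p = 0.000109). BMAL1, the target of NR1D1, rose from 8.82 ± 0.215 to 10.6 ± 0.645 TPM, by 0.23 on the log2(TPM + 1) scale (limma adjusted p = 0.0281). Its call was lost without vehicle library 2 or 3 or PDBAG1 library 2 or 3, at differences of 0.23, 0.22, 0.21 and 0.21. It was also lost with quantile normalization (0.15), with no filter on low values and under a replicate block.

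BMAL2 stood at 28.4 ± 1.37 and 32.6 ± 3.30 TPM (log2 difference 0.19, limma adjusted p = 0.0553), and it was called without vehicle library 1 (0.22), without PDBAG1 library 1 (0.25) and with a filter of 1 TPM in every library. RORA, which competes with NR1D1 at the same response elements, rose from 2.22 ± 0.129 to 4.70 ± 0.578 TPM (log2 difference 0.82, limma adjusted p = 4.22e-05). It was the core activator past the 1.5-fold limit, and RORB was below the filter. Ratios of single repressors to single activators differed in opposite directions. CLOCK was alike in both groups, so the ratios to CLOCK largely restate the repressor. NPAS2, which was more abundant than CLOCK, enters none of them. BHLHE40 to CLOCK was 2.53 ± 0.217 with vehicle and 9.73 ± 0.366 with PDBAG1, NR1D1 to BMAL1 was 0.791 ± 0.0461 and 1.27 ± 0.0735, and CRY1 to CLOCK was 2.14 ± 0.0875 and 1.69 ± 0.0670 (SD, n = 3).

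Of 5 listed output regulators that work beside DBP, 3 were tested and all 3 rose, where 21.7% of all genes tested did. NFIL3, which represses where DBP activates, rose from 14.8 ± 0.904 to 22.6 ± 2.03 TPM (log2 difference 0.58, limma adjusted p = 6.12e-05). TEF, an activator related to DBP, rose from 2.81 ± 0.186 to 4.07 ± 0.521 TPM (log2 difference 0.41, limma adjusted p = 0.00751). CIART, a repressor of CLOCK with BMAL1, rose from 2.29 ± 0.384 to 3.83 ± 0.321 TPM (log2 difference 0.56, limma adjusted p = 0.00151). HLF and USP2 of the same list were below the filter.

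Of 12 kinases, phosphatases, ubiquitin ligases and other modifiers of the clock proteins that were tested, 4 rose and 1 fell, beside 21.7% and 15.9% of all genes tested. The casein kinases CSNK1E and CSNK1D, which mark PER proteins for degradation, rose by 0.29 and 0.19 in log2(TPM + 1) (limma adjusted p = 0.000212 and 0.00513). The phosphatase subunit PPP1CB rose by 0.24 (limma adjusted p = 0.00653). GSK3B rose by 0.27 (limma adjusted p = 0.0110), a call lost without vehicle library 3, where the difference was 0.24. TIMELESS, which also acts at replication forks, fell from 24.0 to 19.2 TPM (log2 difference -0.31, limma adjusted p = 0.00138). With 4 clock outputs in other pathways included, 24 clock genes other than the members were tested, of which 12 rose and 1 fell, where 21.7% of all genes tested rose and 15.9% fell. These genes had a median log2(TPM + 1) difference of 0.19 beside 0.03 for all genes. Of the 3 past the 1.5-fold limit, 2 were outputs in other pathways (CDKN1A and NAMPT). The lists were chosen with earlier results of these data known, so nothing is read from these counts.

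**Figure D2:**
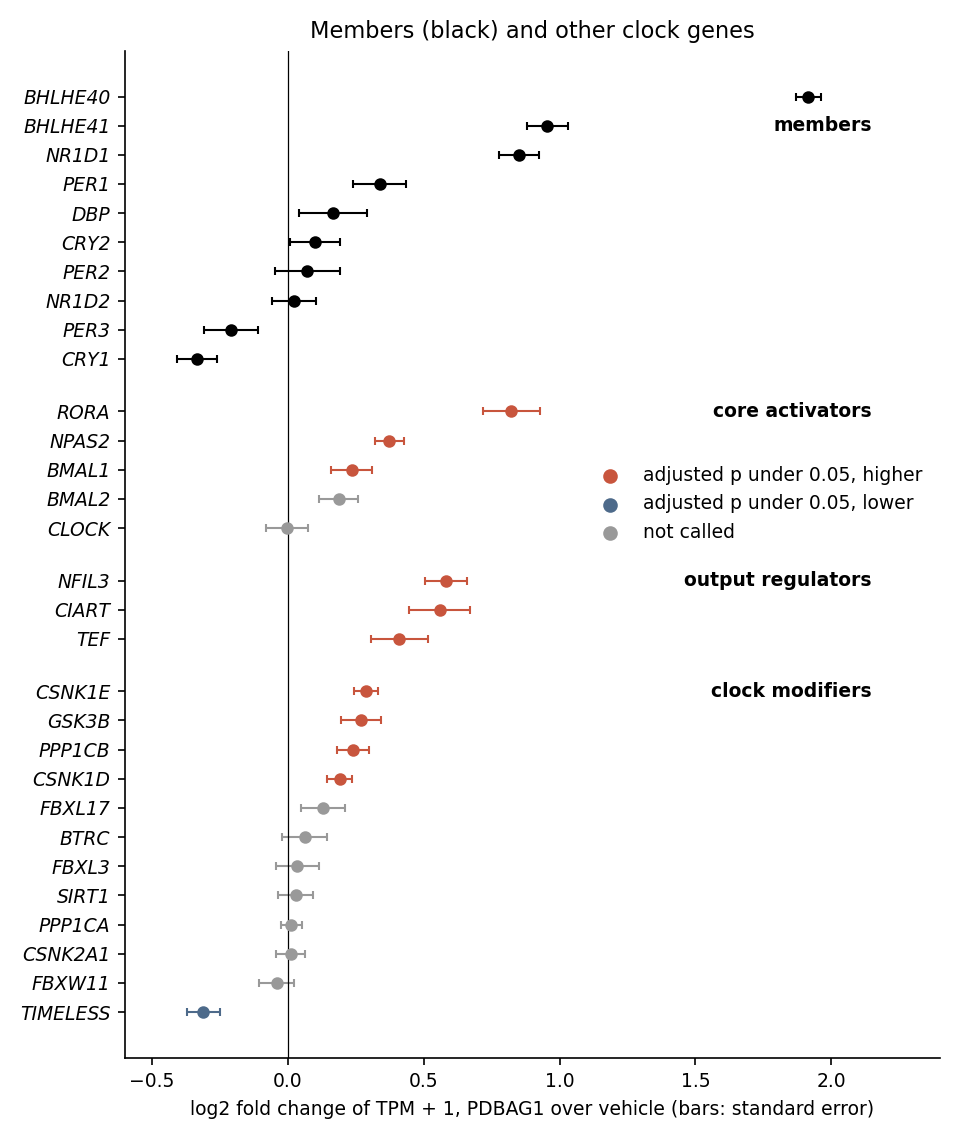
Difference in log2(TPM + 1) between 3 PDBAG1 and 3 vehicle libraries (x axis, log2; bars, SE) for the members in black, which carry no test, and for the tested core activators, output regulators and clock modifiers, coloured by call at an adjusted p under 0.05; clock outputs in other pathways are not plotted. BHLHE40 lies at 1.92, the rest of the plotted genes lie below 1, and CRY1, PER3 and TIMELESS lie farthest to the left.

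Since BHLHE40 and BHLHE41 also respond to hypoxia-inducible factors, the subunits of these factors were read out. EPAS1 (HIF-2α) rose from 35.2 to 52.7 TPM (log2 difference 0.57, limma adjusted p = 5.42e-06), and ARNT, the shared partner, from 19.2 to 24.1 TPM (0.32, limma adjusted p = 0.00140). HIF1A rose from 355 to 389 TPM (0.13, limma adjusted p = 0.0423), but its groups overlapped. The HIF1A call was lost without vehicle library 2 or 3 or PDBAG1 library 2 or 3 (differences of 0.11, 0.11, 0.13 and 0.10), with median-of-ratios scaling (0.10), with no filter on low values and under a replicate block. ARNT2 did not pass the test (0.04, limma adjusted p = 0.775), and HIF3A was below the filter. These are mRNA levels, and the factors are regulated chiefly by protein stability, which RNA libraries do not measure. By immunoblot, the paper reports more HIF-1α protein and less HIF-1β (ARNT) protein in MDA-MB-231 cells given PDBAG1. It also reports more HIF-2α, the protein of EPAS1, after the peptide. The lower ARNT protein lies opposite to the ARNT mRNA here, and the higher HIF-2α protein lies on the same side as the EPAS1 mRNA.

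Across the 13 start-site windows of the 10 members (300 bases each, RefSeq), an E-box was found in 4, belonging to BHLHE40, BHLHE41, PER1 and NR1D2. It occurs in 7.26% of 35116 windows of all genes. The D-box (TTATGTAA, TTACGTAA or TTATGCAA) was found in 4 windows, of PER1, PER2, PER3 and NR1D2, against 1.84% of all windows. The ROR element TAGGTCA was found in 1 window, of CRY2, against 1.85%, and the cAMP response element TGACGTCA in 0, against 1.85%. The hypoxia response core is so short that 48.4% of all windows hold it. Among the members, 12 of the 13 windows did, covering all 10 genes. Sites outside these windows were not searched, and whether any of these elements bears on the level of its gene was not tested.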

How the data were processed

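mRNA of MDA-MB-231 cells was sequenced in 3 vehicle and 3 PDBAG1 libraries. The authors mapped reads with HISAT2 and deposited TPM values, rounded to 2 decimals, for 17631 genes. The submitters' processing notes name HISAT2 2.0.4, Bowtie2 2.2.5, RSEM 1.2.12 and GRCh38.p12. The methods name FPKM, but every deposited library sums to the same total, as TPM does. Depth and strand setting are not given in the sources used here.

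Genes at 1 TPM or more in at least 3 libraries (12582) were tested on log2(TPM + 1) with limma 3.58.1 (lmFit, eBayes with trend) in R 4.3.3, and p-values were Benjamini-Hochberg adjusted over all of them. Log2 differences on this scale understate low genes. An exact permutation test of 3 against 3 libraries cannot go under p = 0.1. The code was tested on simulated data. Non-overlap means that every library of one group exceeds every library of the other.

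The members and lists were chosen with earlier results of these data known. Named were all members, core activators and HIF subunits, other listed genes at an adjusted p under 0.05, the genes nearest to BHLHE40 and BHLHE41 in profile, and some genes overlapping members. Some listed genes are not reported here. Positions come from GENCODE 44, where 17212 genes matched by Ensembl ID, and start-site windows from RefSeq, where all 10 members matched. Alternatives changed the filter, pseudocount, scaling, fold limit and block, and left out each library in turn.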

Additional observations from a re-analysis of the deposited data

How the results depend on the processing

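At an adjusted p under 0.05 and 1.5-fold, 420 genes were called (360 higher, 60 lower). Counts were 80 (73 and 7) at 2-fold and 4736 (2736 and 2000) with no fold limit. A pseudocount of 0.1 gave 630 (530 and 100) and kept 2 of the 5 genes most like BHLHE40. Quantile normalization gave 381 (287 and 94), with 75.3% of calls higher against 85.7%. Leaving out 1 library gave 423 to 483 genes. BHLHE40 ranged from 1.88 to 1.94, and the lowest values of PER2 and CRY2 (-0.01 each, quantile normalization) and NR1D2 (-0.06, without PDBAG1 3) lay below 0.

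Members lower without overlap numbered 1, 2 with median-of-ratios scaling, 2 with quantile normalization, and 1 to 2 when a library was left out (2 without vehicle 2 or PDBAG1 3). Members past the adjusted threshold on the lower side numbered 2 under both scalings, and those on the higher side 3 without vehicle 1 and 3 with quantile normalization, against 4. PER3 stood at -0.24 with median-of-ratios scaling and -0.31 with quantile normalization. PER1 stood at 0.26 without vehicle 1 and 0.23 with quantile normalization.

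With the replicate number as a block, 427 genes were called, all 420 among them. The deviations of same-numbered libraries correlated at -0.21, 0.01 and -0.08, so no pairing by number was seen. Whether same-numbered libraries were prepared together is not stated. TPM keeps no depth, so no counting error could be given.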

Other observations

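Some clock-linked genes outside the loop differed clearly. CDKN1A, the cell cycle inhibitor p21, rose from 50.8 ± 0.0625 to 113 ± 2.19 TPM (SD, n = 3), by 1.14 in log2(TPM + 1) (limma adjusted p = 4.38e-10). NAMPT, the rate-limiting enzyme of NAD salvage, rose from 229 to 416 TPM (log2 difference 0.86, limma adjusted p = 9.51e-09). WEE1 (-0.07, limma adjusted p = 0.450) and PPARA (0.12, limma adjusted p = 0.347) did not pass the test.

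Some genes described as repressed by BHLHE40 or BHLHE41 were also read out. The adipogenic receptor PPARG fell from 79.4 to 68.0 TPM (log2 difference -0.22, limma adjusted p = 0.00655). CCND1, cyclin D1, fell from 367 to 337 TPM (-0.12, limma adjusted p = 0.0264), a call lost without vehicle library 1 or 3 or PDBAG1 library 1 or 2 (-0.10, -0.14, -0.11 and -0.10), with quantile normalization (-0.09), with no filter on low values and under a replicate block. SREBF1, PPARGC1A and RXRA did not pass the test, with differences of -0.13, 0.24 and 0.01, though SREBF1 was called with median-of-ratios scaling (-0.16) and quantile normalization (-0.15). Neither PPARG nor CCND1 reached the 1.5-fold limit.

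Of the related HES and HEY repressors, 7 of 10 were tested and only HEY1 was called, where 21.7% of all genes tested rose and 15.9% fell. HEY1 rose from 1.03 ± 0.372 to 1.75 ± 0.137 TPM (SD, n = 3), by 0.45 in log2(TPM + 1) (limma adjusted p = 0.0188). That call was lost without vehicle library 2 (0.33), vehicle library 3 (0.43) or PDBAG1 library 3 (0.41). HEY1 lay near the filter, at 0.71 and 0.95 TPM in vehicle libraries 2 and 3. It was therefore not tested with a filter of 1 TPM in every library. HES2 (0.30) was called without PDBAG1 library 3 (0.36) and with a filter of 1 TPM in every library.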
